A study of Rattus norvegicus with 30 samples.

Results

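The probes described here had a high signal in parental PC12 cells and a low signal in every PC12 line that carried a huntingtin construct. They were chosen by their measured values before induction: a probe was a member when its day 0 mean in PC12 lay at least 1.0 above its day 0 mean in each of the 4 construct lines. Of 22521 probes, 45 met this rule, which is 0.200% of the array. On the natural log scale of the deposited values, inferred from their range, 1.0 corresponds to 2.72-fold, and dim signals are compressed, so that such folds understate the change of dim probes.

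The study followed gene expression in inducible rat PC12 cells that model Huntington's disease. Doxycycline, at 1 µg/ml, switched on exon 1 of huntingtin fused to green fluorescent protein, with 74 glutamines in Q74 lines 4 and 6 and 23 glutamines in Q23 lines 1 and 5. PC12 cells without a construct were cultured in the same way, with G418 and hygromycin. Cells were taken on days 0, 1 and 5. Each construct line gave 2 RNA isolations a day, which fill 24 arrays, and PC12 has 2 arrays a day, 6 in all. The 2 lines of a construct were the biological replicates. PC12 was taken as 1 culture, although its sample codes carry the numbers 1 and 2, which leave 2 cultures open. These numbers stand both at the place of the isolation and at the place that names the line in the codes of the construct lines. Whether the parental cells carry the tetracycline-controlled transactivator is not given in the sources used here. The presence of a construct, the history of each line and any other feature shared by the lines cannot be told apart in a comparison of the lines with PC12.

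PC12 cells derive from a phaeochromocytoma of the rat adrenal medulla. They make and store catecholamines and extend neurites in response to nerve growth factor. In a tetracycline-inducible system, a regulatory protein and a responsive construct are integrated in turn, and drug-resistant colonies are grown out as separate lines, so each line descends from few selected cells. Expanded polyglutamine makes exon 1 huntingtin prone to aggregate. The tables used here do not pair the array's probes with genes, so neither the members nor the markers of chromaffin cells could be named. Members are therefore given by rank, where rank 1 has the largest distance between PC12 and the highest construct line at day 0. The probe IDs are printed for 4 members only, the pair that rose most and the pair that fell most in the Q74 lines from day 1 to day 5.

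Array-wide levels differed by little between the lines and PC12. The mean of all probes was 5.57 to 5.58 on the arrays of the lines and 5.51 to 5.52 on the PC12 arrays, while the array medians were 4.74 to 4.82 in the lines and 4.80 to 4.85 in PC12. At the members, however, the PC12 arrays of number 1 and number 2 differed in the same way on each of the 3 days. Across the 45 members, the differences between the numbers correlated with r = 0.951 between days 0 and 1, 0.941 between days 0 and 5 and 0.928 between days 1 and 5, against 0.498, 0.483 and 0.398 across all probes, as a description over probes of the same arrays. The sign was the same on all 3 days in 35 of 45 members and in 46.1% of all probes. In 5 members the numbers differed by at least 0.4 on every day, and 30 of all probes did so. The member ranked 44 had the widest gap, with 4.99, 5.14 and 5.03 in PC12 number 1 on days 0, 1 and 5, and 6.20, 6.07 and 6.21 in PC12 number 2. The rule applied with PC12 number 1 alone was met by 48 probes, among them 41 of the members, and with number 2 alone by 45 probes, among them 42 of the members. Both numbers gave 38 members each on its own. What the numbers stand for was not tested. Between the isolations of the construct lines, the correlation over the members from day 0 to day 1 reached 0.802 in Q74 line 4, 0.709 in Q74 line 6, 0.426 in Q23 line 5 and 0.168 in Q23 line 1.

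**Figure D1:**
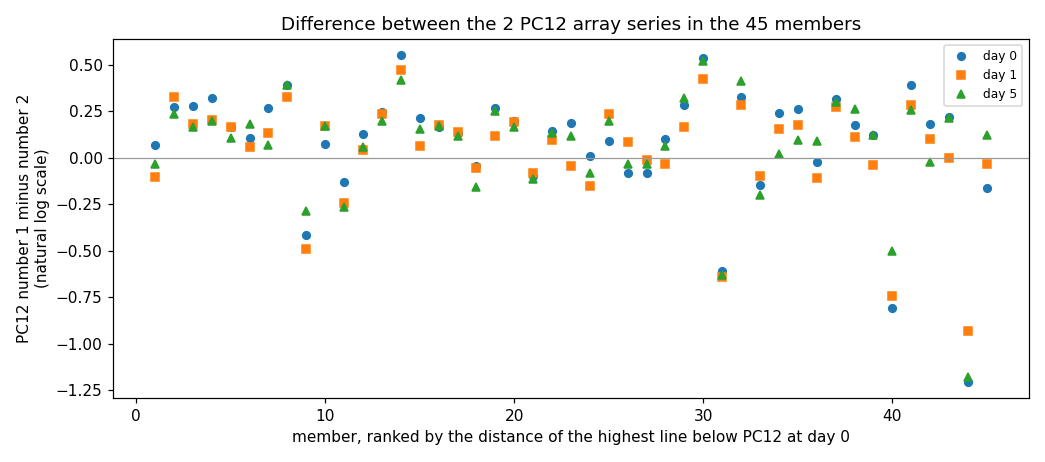
Difference between the PC12 arrays of number 1 and number 2 (natural log scale) for each of the 45 members by rank, with 1 symbol for each day. The 3 symbols of a member lie close together, and at rank 44 number 1 lay 1.20 below number 2 at day 0.

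At day 0, the distance from PC12 down to the highest of the 4 lines was 1.00 to 4.08 over the 45 members, with a median of 1.55. These distances are what the rule used and are given as a description. It was at least 2.0 in 11 members and at least 3.0 in 4. The member ranked 1 stood at 5.04 in Q74 line 4, 4.68 in Q74 line 6, 4.95 in Q23 line 1 and 5.17 in Q23 line 5, against 9.25 in PC12. Its signal in PC12 was thus 59.3-fold that of the highest line, and 2.39% of all probes were at least as bright in PC12. Ranks 2 and 3 were close behind, with distances of 4.08 and 3.81. At the other end, the members ranked 43, 44 and 45 passed the rule by distances of 1.04, 1.01 and 1.00, and the next probes missed it with 0.98, 0.97 and 0.97. Few probes came near the rule in part. At least 1 line lay 1.0 or more below PC12 for 143 probes, at least 2 lines for 82, at least 3 lines for 59 and all 4 lines for 45. In the opposite direction, with every line at least 1.0 above PC12, there were 281 probes.

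The members were well expressed in PC12, which the rule favours because PC12 had to exceed each line by at least 1.0. Their PC12 day 0 level was 5.56 to 9.99 with a median of 7.09, against a median of 4.82 over all probes, and 34 of the 45 were among the brightest 25% of probes in PC12. The array floor of each line was taken as the mode of its day 0 values, and a member was near the floor when it lay within 3 lower-side spreads of that mode. The modes were 4.52 in Q74 line 4, 4.48 in Q74 line 6, 4.51 in Q23 line 1, 4.50 in Q23 line 5 and 4.40 in PC12. In PC12, 0 of 45 members were near the floor, which follows largely from the rule. They lay 1.16 to 5.59 above the mode with a median of 2.68. In the lines, the median member lay 0.33 above the mode in Q74 line 4, 0.26 in Q74 line 6, 0.29 in Q23 line 1 and 0.36 in Q23 line 5. Near the floor were 24 members in Q74 line 4, 24 in Q74 line 6, 24 in Q23 line 1 and 22 in Q23 line 5. Of all probes, 46.3% lay above the floor limit in Q74 line 4 and 49.9% in Q74 line 6. In Q23 line 1 it was 47.6%, and in Q23 line 5 it was 47.0%. In the same order, 21, 21, 21 and 23 of the 45 members lay above it, which is close to the share of all probes.

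The members ranged from those near the floor in all 4 lines to those above it in every line. In 15 members all 4 lines were near the floor, with line means of 4.31 to 4.76, against PC12 levels of 5.56 to 7.40. In 15 other members none of the lines was near the floor, with line means of 5.02 to 8.19, against PC12 levels of 6.82 to 9.99. The remaining 15 were mixed, with 8 near the floor in 3 lines, 3 in 2 lines and 4 in 1 line. The largest distances belonged to probes that were dim in the lines. Over ranks 1 to 11, every line level lay between 4.39 and 5.17. By contrast, the member ranked 20 was bright in all cells, at 8.27 in Q74 line 4, 8.19 in Q74 line 6, 7.95 in Q23 line 1 and 8.34 in Q23 line 5, against 9.99 in PC12, the highest PC12 level of any member. With a limit of 5 spreads in place of 3, 26 members were near the floor in all 4 lines.

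**Figure D2:**
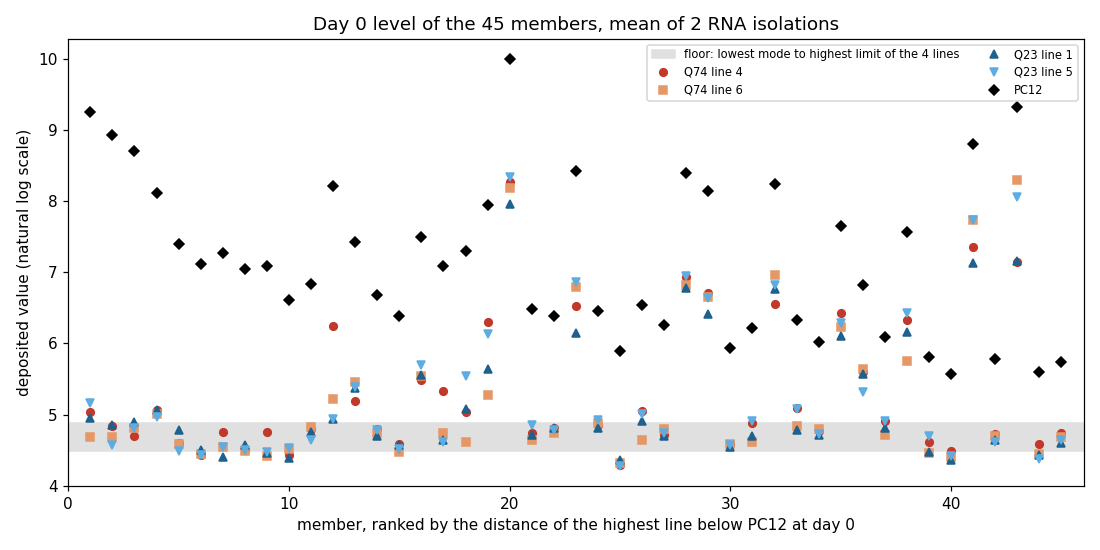
Deposited value at day 0 (natural log scale, mean of 2 RNA isolations) of the 45 members by rank, with 1 symbol for each of the 4 construct lines and PC12; the grey band runs from the lowest floor mode to the highest floor limit of the lines. PC12 lies between 5.56 and 9.99, and over ranks 1 to 11 the lines lie between 4.39 and 5.17, in or just above the band.

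At most members the 4 lines lay close together at day 0, on values that the rule used. The range over the lines had a median of 0.23, was under 0.5 in 37 of 45 members and was at least 1.0 in 3. Its median was 0.13 in the 15 members near the floor in all 4 lines. In the 15 members with 0 lines near the floor it was 0.39. The share over all probes was not computed, so the closeness is a description only. The highest of the 4 lines was Q74 line 4 in 16 members, Q74 line 6 in 9, Q23 line 1 in 7 and Q23 line 5 in 13. The widest range was 1.30, at rank 12. There, the isolations gave 6.10 and 6.37 in Q74 line 4, 5.21 and 5.23 in Q74 line 6, 4.89 and 4.97 in Q23 line 1, 4.95 and 4.92 in Q23 line 5, and 8.28 and 8.15 in PC12. Q74 line 4 was therefore apart from the other lines at this member, and all of them stayed below PC12. At rank 43 the split ran across the constructs, with 7.15 in Q74 line 4, 8.29 in Q74 line 6, 7.15 in Q23 line 1 and 8.05 in Q23 line 5, against 9.33 in PC12.

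The difference between the lines and PC12 lasted through both later days. These days have arrays that the rule did not use, although they come from the same lines. At day 1, 44 of 45 members still lay at least 1.0 below PC12 in all 4 lines, and 49 probes of the array, or 0.218%, met this condition. At day 5 it held for 39 of 45 members, with 44 probes of the array, or 0.195%. Over all construct arrays, every value lay below every PC12 value in 45 of 45 members at day 1, where 13.0% of all probes did so, and in 43 of 45 at day 5, where 13.7% did so. On both days together it was 43 of 45, against 6.72% of all probes. PC12 itself hardly moved at the members, where its range over the 3 days was 0.01 to 0.22 with a median of 0.06.

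The same held in limma, an array test that borrows strength across probes, when the mean of the lines was set against PC12. A probe is called here when its p, adjusted by Benjamini-Hochberg over all 22521 probes, is under 0.05 in a two-sided test. At day 1, 43 of 45 members were lower in the lines and 0 were higher, whereas 5.89% of all probes were called lower and 10.8% higher. At day 5, 42 were lower and 0 higher, against 7.29% of all probes called lower and 12.6% higher. The median difference, lines minus PC12, was -1.68 at day 1 and -1.74 at day 5 over the members, and 0.03 and 0.02 over all probes. Rank 1 differed by -4.31 at day 1 (SE 0.17, limma adjusted p = 9.42e-07). Not called were rank 41, with -1.28 (SE 0.39, limma adjusted p = 0.0555) at day 1 and -1.18 (SE 0.39, limma adjusted p = 0.0653) at day 5, and rank 43, with -1.73 (SE 0.69, limma adjusted p = 0.127) at day 1 and -1.72 (SE 0.69, limma adjusted p = 0.115) at day 5. At day 5 rank 31 was not called either. PC12 entered this fit as 1 value a day that is assumed to vary like the lines of a construct. The day 0 values of the lines, which the rule used, also entered the spread of this fit. The days of a line counted as separate values, so its p-values can be too small.

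**Figure D3:**
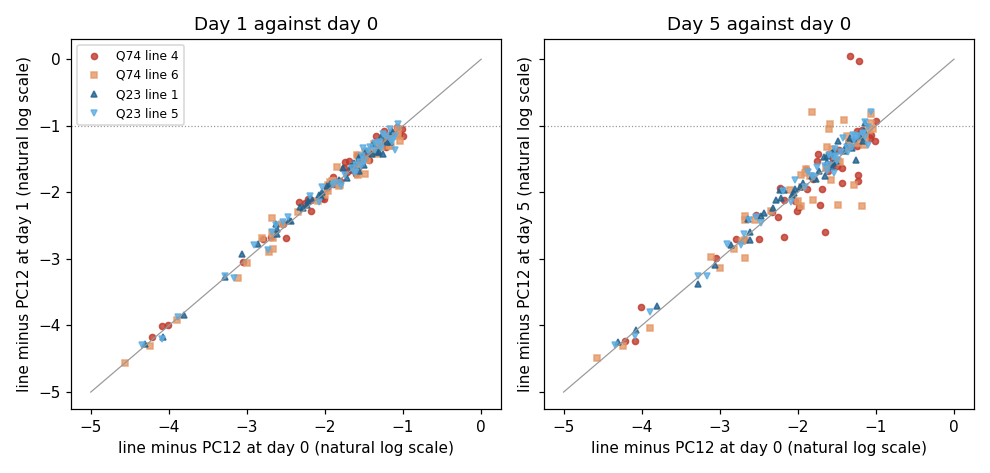
Difference of each line from PC12 (natural log scale) at day 1 (left) and day 5 (right) against the same difference at day 0, for 45 members in each of the 4 lines; the grey diagonal marks no change and the dotted line a difference of -1.0. At day 1 the points keep to the diagonal, and at day 5 a few Q74 points leave it, 1 of them reaching 0.05 above PC12.

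Each exception at day 5 had a Q74 line less than 1.0 below PC12, and ranks 38, 41 and 45 also had a Q23 line there. Both Q74 lines stayed at least 1.0 below PC12 in 45 members at day 1 and 39 at day 5, and both Q23 lines in 44 members at day 1 and 42 at day 5. Of the 6 members that no longer met the condition at day 5, ranks 31, 35 and 45 had Q74 line 4 as their highest line, ranks 28 and 38 had Q74 line 6 and rank 41 had Q23 line 5. At rank 45 the lines were alike at day 5, with 4.69 in Q74 line 4, 4.66 in Q74 line 6, 4.66 in Q23 line 1 and 4.60 in Q23 line 5, against 5.62 in PC12, a distance of 0.93. Rank 28 missed it with 0.97, and ranks 38 and 41 with 0.79 each. From day 0 to day 5 PC12 itself changed by -0.16 at rank 41 and by -0.12 at rank 45.

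After induction, changes were called in the Q74 lines between days 1 and 5 and not before. From day 0, whose arrays chose the members, to day 1, limma called 0 of 45 members in Q74, where 0.382% of all probes were called higher and 0.0444% lower, and 4 members and 4.81% of all probes had an unadjusted p under 0.05. The median change of the members in this interval was 0.01 in Q74 line 4 and -0.03 in Q74 line 6. From day 1 to day 5, 10 of 45 members were called in Q74, 3 higher and 7 lower, which is 22.2% of the members, where 9.34% of all probes were called, 5.71% higher and 3.63% lower. The sign of the change was the same in both Q74 lines in all 10, although at rank 28 the change in line 4 was only 0.04. The call favours such agreement because it rests on the mean of these 2 lines, so the agreement adds little. Of the 10 called members, 8 were among the 15 members that lay above the floor in every line, and 2 were among the 30 that were near it in at least 1 line. When only the brighter 11260 probes were tested, 10 of the 25 members among them were called, where 20.3% of those probes were. The line was a fixed block in this fit of 12 line-by-day values. With the variance allowed to follow the mean level and a robust prior, 6 members were called, 0 of them higher, where 9.10% of all probes were. Without the line as a block 0 members were called, where 0.0444% of all probes were.

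Among the members, all changes of at least 0.5 were in the Q74 lines. In Q74 line 4, 2 members increased and 4 decreased by that much from day 1 to day 5, against 1.79% of all probes in either direction. In Q74 line 6, 2 increased and 3 decreased, against 0.502% of all probes. In both Q23 lines and in PC12 it was 0 of 45, where the share over all probes was 0 in both Q23 lines and 0.00444% in PC12. The changes of the members ran from -0.997 to 1.40 in Q74 line 4, from -0.92 to 1.01 in Q74 line 6, from -0.18 to 0.18 in Q23 line 1, from -0.12 to 0.14 in Q23 line 5 and from -0.12 to 0.06 in PC12. From day 0 to day 5, 12 members were called in Q74, 4 higher and 8 lower, where 6.13% of all probes were called higher and 4.21% lower, and 9 members were called over both intervals. This interval shares its day 0 arrays with the rule, which took members for being low there.

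**Figure D4:**
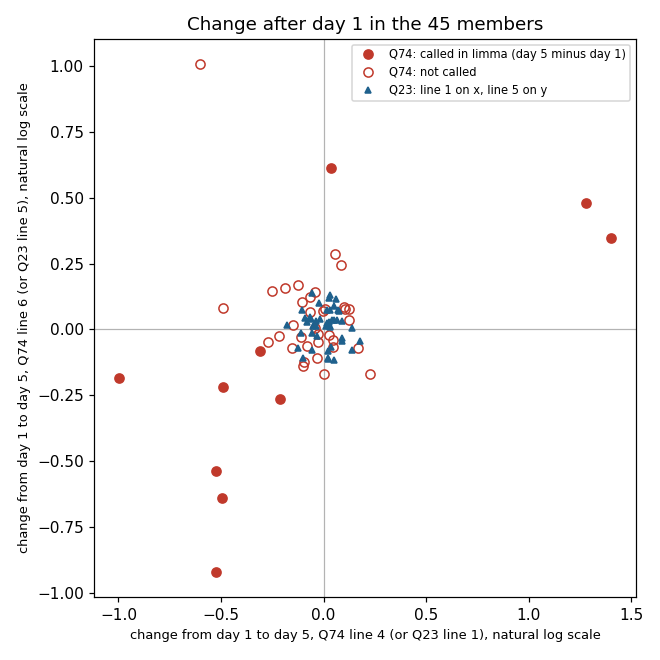
Change from day 1 to day 5 (natural log scale) of each member in 1 line of a construct against the other, with Q74 as circles (filled where limma called the change) and Q23 as triangles. The Q23 triangles lie within 0.18 of 0, while Q74 spans -0.997 to 1.40 in line 4 and -0.92 to 1.01 in line 6, with 1 open circle at -0.60 in line 4 and 1.01 in line 6.

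A pair of members rose towards the PC12 level. ILMN_2039396, ranked 35, had 7.56 and 7.64 in Q74 line 4 and 6.73 and 6.70 in Q74 line 6 at day 5, against 6.29 and 6.34 in line 4 and 6.26 and 6.22 in line 6 at day 1. The PC12 arrays of day 5 read 7.68 and 7.58, so that Q74 line 4 reached the PC12 range and line 6 did not. In the Q23 lines it stayed between 6.15 and 6.29 at day 5. The mean change in Q74 from day 1 to day 5 was 0.88 (SE 0.12, limma adjusted p = 0.000169), made up of 1.28 in line 4 and 0.48 in line 6.

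ILMN_1364747, ranked 31, had 6.22 and 6.27 in Q74 line 4 and 5.21 and 5.07 in Q74 line 6 at day 5, against 4.76 and 4.92 in line 4 and 4.83 and 4.76 in line 6 at day 1. It was near the floor in 3 of the 4 lines at day 0. Its PC12 arrays at day 5 read 5.87 for number 1 and 6.51 for number 2, and Q74 line 4 lay between them. It is among the 5 members with a gap of at least 0.4 between the PC12 numbers on every day. The change in Q74 was 0.88 (SE 0.15, limma adjusted p = 0.00103), with 1.40 in line 4 and 0.35 in line 6. This is the member that was no longer called against PC12 at day 5, at -0.96 (SE 0.32, limma adjusted p = 0.0677). Both probes changed more in line 4 than in line 6, and with the robust prior neither was called (adjusted p = 0.1 for ILMN_2039396 and 0.18 for ILMN_1364747).

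The third member called higher, ranked 28, changed by 0.04 in Q74 line 4 and by 0.61 in Q74 line 6, with a mean of 0.33 (SE 0.09, limma adjusted p = 0.0352). Its change lay in line 6.

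Members that fell moved further from PC12. ILMN_1374840, ranked 36, had 5.07 and 5.03 in Q74 line 4 and 4.74 and 4.60 in Q74 line 6 at day 5, against 5.90 and 5.25 in line 4 and 5.87 and 5.31 in line 6 at day 1. All 4 values of day 5 lay below all 4 of day 1, although the isolations of day 1 lay well apart in both lines. At day 5 PC12 read 6.92 and 6.83 and the Q23 lines 5.34 to 5.38. The change in Q74 was -0.72 (SE 0.08, limma adjusted p = 2.47e-05), with -0.52 in line 4 and -0.92 in line 6.

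ILMN_1362601, ranked 19, had 5.33 and 5.41 in Q74 line 4 and 5.07 and 4.89 in Q74 line 6 at day 5, against 6.21 and 6.52 in line 4 and 5.20 and 5.13 in line 6 at day 1. The PC12 arrays of day 5 read 8.09 and 7.84. The mean change was -0.59 (SE 0.12, limma adjusted p = 0.00365), and it lay mainly in line 4, with -0.997, against -0.19 in line 6. Without Q74 line 4 it was not called (-0.19, limma adjusted p = 0.21).

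The members ranked 32 and 29 fell by similar amounts in both Q74 lines. Rank 32 read 6.12 and 6.23 in Q74 line 4 and 6.36 and 6.13 in Q74 line 6 at day 5, against 6.49 and 6.86 in line 4 and 6.84 and 6.93 in line 6 at day 1. In the Q23 lines it was 6.84 to 7.02 at day 5, above every Q74 array of that day. It fell by 0.57 in Q74, and rank 29 fell by 0.53. Smaller falls were 0.35 at rank 20, the brightest member, 0.24 at rank 16 and 0.20 at rank 2, each a mean over the Q74 lines that limma called.

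**Figure D5:**
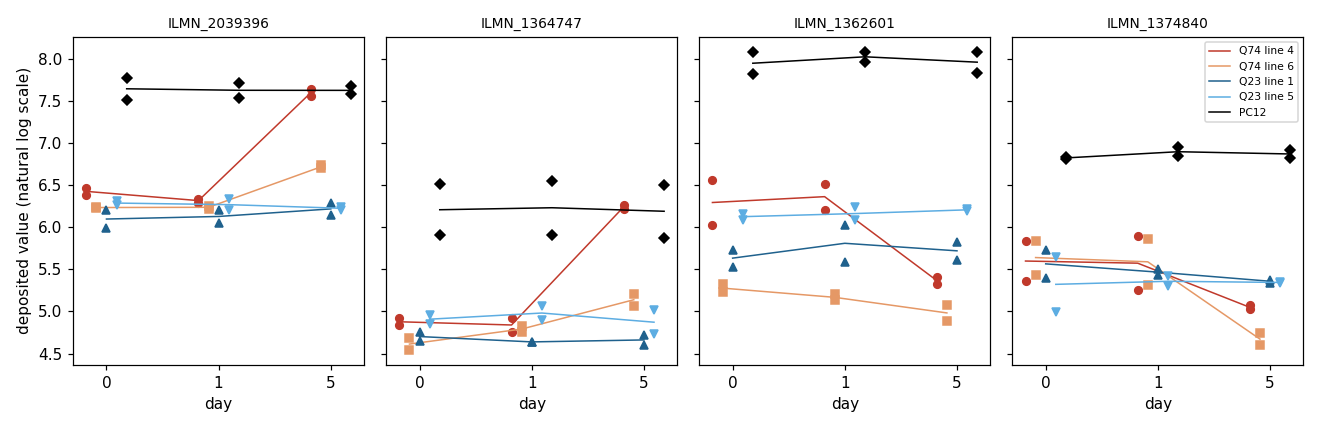
Deposited values (natural log scale) of the 2 members that rose most and the 2 that fell most in Q74 from day 1 to day 5, with 1 symbol for each array and a line through the mean of each cell line, on days 0, 1 and 5. At day 5 Q74 line 4 reaches a mean of 7.60 at ILMN_2039396 and 6.24 at ILMN_1364747, near PC12, and Q74 line 6 is at 4.67 at ILMN_1374840, while at ILMN_1362601 the 4 lines already differ at day 0.

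The change in Q74 was also tested against the change in Q23. From day 1 to day 5 this difference was called in 6 of 45 members, 2 higher (ranks 31 and 35) and 4 lower (ranks 20, 29, 32 and 36), where 0.955% of all probes were called higher and 1.05% lower. It was 0.86 (SE 0.17, limma adjusted p = 0.0125) for ILMN_2039396, 0.92 (SE 0.21, limma adjusted p = 0.0300) for ILMN_1364747 and -0.66 (SE 0.11, limma adjusted p = 0.0044) for ILMN_1374840. From day 0 to day 5 it was called in 8 members, 2 higher and 6 lower, where 1.53% of all probes were called higher and 1.51% lower. The day 0 arrays of this interval also chose the members, so this count is given as a description. Neither count held when a Q23 line was left out: without Q23 line 1 or without Q23 line 5, 0 members were called over either interval, while without Q74 line 6 it was 10 from day 1 to day 5. With 1 line of a construct left, the spread comes from the other construct alone.

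Levels of the constructs within a day differed at few members. At day 1, limma called 0 of 45 members between Q74 and Q23, where 0.155% of all probes were called in either direction, and 1 member and 6.30% of all probes had an unadjusted p under 0.05. At day 5, 2 members were lower in Q74 and 0 higher, where 0.644% of all probes were called lower and 0.480% higher. These were rank 32, with -0.71 (SE 0.12, limma adjusted p = 0.0308), and rank 16, with -0.43 (SE 0.07, limma adjusted p = 0.0215). The larger differences of ILMN_2039396, at 0.93, and ILMN_1364747, at 0.92, were not called (limma adjusted p = 0.1 and 0.215). This comparison has no line block, so lasting differences between the lines of a construct enter its spread. The days of a line count as separate values in it, so its p-values can be too small. Without either Q23 line it called 0 members at day 5.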

How the data were processed

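The 30 arrays were Illumina RatRef-12 BeadChips. BeadStudio 3.1.7 gave the authors a bead average per probe, left without background correction, which they normalized by VSN in R 2.4.1, and the deposited values are on a natural log scale. That base is inferred from the highest value, 11.1, near the natural log of 65535 (log2 would reach 16), and whether all arrays were normalized together is not stated. The isolations of each line on each day were averaged. The members, the rule and the planned lists were chosen with earlier results of these data known. In R 4.3.3 with limma 3.58.1, 2 fits without a block were made, 1 of 15 values for lines minus PC12 and 1 of 12 values for Q74 minus Q23 (6 residual degrees of freedom each), and 1 more of 12 values had the line as a block for changes over days (4 residual degrees of freedom). Every fit used all 22521 probes, with no filter on low values. The lines minus PC12 and the changes to day 5 were tried on simulated data. Levels of Q74 against Q23 and changes from day 0 to day 1 were not. The simulated lines of a construct had no lasting differences, so the simulation cannot test the fits without a block where such differences exist. In the fit with a block, p-values measure the spread of line-by-day values after the level of each line is taken out. In the fits without a block, the days of a line enter as separate values although line differences can last. Their p-values can therefore be too small. The printed IDs follow a rule for unnamed probes: the 2 members with the largest rise and the 2 with the largest fall among calls from day 1 to day 5 in Q74. Of the probe IDs, 0 matched the reference table, so gene lists and markers were not used. Chip and scan batches are not given in the sources used here and were not tested. The number of arrays limits the precision. Alternatives were other normalization, other thresholds, a dim-probe filter, a variance trend, single isolations and leaving out lines. Python 3.11.15 and matplotlib 3.10.9 drew the plots.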

Additional observations from a re-analysis of the deposited data

Results flagged for a closer look

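The change of the Q74 lines was tested against that of the Q23 lines (limma, line block). The difference was called at 6 members from day 1 to day 5, where 2.01% of all probes were called. It was called at 8 members from day 0 to day 5, where 3.04% of all probes were. With no line block 0 members were called over either interval, and neither count held when a Q23 line was left out. From day 1 to day 5 the difference was 0.86 for ILMN_2039396, 0.92 for ILMN_1364747 and -0.66 for ILMN_1374840. From day 0 to day 5 it was 0.80 for ILMN_2039396, 0.98 for ILMN_1364747, -0.67 for ILMN_1374840 and -0.70 for ILMN_1362601, with day 0 arrays that the rule also used.

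The Q74 lines went opposite ways at the member ranked 38, a difference that was not tested. In line 4 it read 5.64 and 5.85 at day 5, against 6.38 and 6.32 at day 1, a change of -0.60. In line 6 it read 6.71 and 6.67 at day 5, against 5.80 and 5.56 at day 1, a change of 1.01. In both lines the values of the days did not overlap. The member was chosen for these values after they were seen.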

How the results depend on the processing

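The number of probes meeting the rule was 90 with a distance of at least 0.7 and 25 with 1.5, and 43 to 53 under the other alternatives run. Members were chosen anew under each, so counts over 45 can occur. Members near the floor in all 4 lines were 26 with a limit of 5 spreads and 13 to 20 otherwise. The members meeting the 1.0 condition were 41 to 51 at day 1 and 36 to 46 at day 5. Called lower in the lines than in PC12 were 38 to 45 members on each day under every alternative, and 45 on both days with the PC12 numbers as 2 cultures, an alternative chosen after seeing the data.

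Changes within the lines depended more on the fit, and the cause was not tested. The share of all probes called often moved with it, also when a line was left out. For Q74 from day 1 to day 5 this share was 9.34% in the main fit and 0.0444% with no line block. With a variance trend and robust prior it was 9.10%. Between Q74 and Q23 at day 5 it was 1.12% in the main fit and 5.69% with each isolation as a sample. In Q74 from day 1 to day 5, 6 members were called with a variance trend and robust prior, 0 with no line block, and 6 to 14 when a line or isolation was left out (14 without Q74 line 6, 6 without isolation 2). From day 0 to day 5, 0 were called with no line block. For the Q74 change minus the Q23 change from day 1 to day 5, 3 were called with each RNA isolation as a sample, 0 with no line block, and 0 to 10 on leaving 1 out. From day 0 to day 5 it was 5 with a variance trend and robust prior, 5 with each isolation as a sample, 0 with no line block, and 0 to 12 on leaving 1 out. Between Q74 and Q23, leaving 1 out gave 0 to 3 at day 1 (3 without Q74 line 6) and 0 to 8 at day 5 (8 without Q74 line 4), and each isolation as a sample gave 5 at day 5. The direction of the results given for the 4 printed IDs was kept in all 360 alternatives run, but 59 of these lost the call and 18 gained one. The 4 were picked for large changes and the alternatives share arrays, so a kept direction adds little.

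The isolation numbers were not used to pair the samples in the main fits. Over 105 pairs of lines and days, the correlation of same-numbered deviations was -0.31 to 0.57. Its median was 0.14, with 65 pairs over 0.1, so same-numbered isolations tended to deviate together. With the number as a replicate block and each isolation as a sample, 45 members were called against PC12 on both days. Of all probes, 27.9% were called so at day 1 and 31.8% at day 5, in either direction. In Q74 from day 1 to day 5, 9 members and 8.81% of all probes were called. Between Q74 and Q23 at day 5 it was 7 members and 6.28% of all probes. Dim signals limit what can be read where all lines are near the floor.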
